A study of Mus musculus with 4 samples.

Results

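The genes described here are 7 that encode plasma carrier proteins, Afp, Alb, Ttr, Rbp4, Trf, Vtn and Ambp, chosen by name and followed across cell classes and between DUX-pulsed and control cells. They are 7 of the 20284 genes in the expression table, and all 7 were in it. Single-cell RNA was profiled with the 10x Genomics droplet assay in day 9 embryoid bodies, which are aggregates of differentiating mouse embryonic stem cells (mESC). The DUX-pulsed embryoid bodies grew from mESC that had been given a pulse of DUX, a transcription factor of the early cleavage-stage embryo, and the control embryoid bodies grew from mESC without it. Each group had 2 libraries, described as biological replicates. The strain and clone of the stem cells and the dose and length of the pulse were not given in the sources used here.

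The liver and, before it forms, the visceral endoderm of the yolk sac secrete these proteins into the blood or the yolk sac fluid. Afp (alpha-fetoprotein) and Alb (albumin) are neighbouring genes of 1 family, with Afp active in yolk sac endoderm and fetal liver and Alb rising as hepatocytes mature. Ttr (transthyretin) carries thyroid hormone and holds Rbp4 (retinol binding protein 4) with its retinol in the circulation, Trf (transferrin) carries iron, Vtn (vitronectin) is an adhesive glycoprotein that integrins bind, and Ambp is the precursor of alpha-1-microglobulin and bikunin, a subunit of the inter-alpha-inhibitors.

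The 2 DUX-pulsed libraries kept 2063 and 1353 cells and 65062824 and 36462169 unique molecular identifiers (UMIs), and the 2 control libraries kept 2824 and 2636 cells and 96344329 and 78167098 UMIs. The median UMI count per cell lay between 27260 and 30402.5 over the 4 libraries, and the median mitochondrial share was 4.01% and 4.54% in the DUX-pulsed libraries and 6.22% and 6.42% in the control libraries. Of all cell barcodes, 8 occurred in 2 libraries. Cells were clustered without the 7 genes, into 19 clusters, and 6 clusters with 3533 cells were taken as endoderm-like because their summed counts held at least 20 CPM (counts scaled to the total of the set) of both Foxa2 and Hnf4a, endoderm transcription factors, and no other class's markers led them. The 8 clusters of named non-endoderm classes held 2579 cells (cardiomyocyte-, mesenchyme-, endothelium-, erythroid-, myeloid- and trophoblast-like). The marker lists, without any of the 7 genes, also named the clusters, so their sums describe the 2 sets without checking them. Summed visceral endoderm markers reached 3906 CPM in endoderm-like against 244.5 CPM in non-endoderm cells, and gut markers 7313 against 164.3 CPM. Cardiomyocyte markers were at 199.4 against 15960 CPM and erythroid markers at 26.5 against 7108 CPM. Parietal endoderm markers lay closer, at 3154 against 1783 CPM, as did epiblast and primitive streak markers, at 47.67 against 48.37 CPM. Parietal endoderm-like cells (342), 2 clusters with the endoderm factors and epiblast or primitive streak genes (1066 cells), a cluster led by Dppa5a (382 cells) and a cluster of low depth (974 cells) stood outside both sets.

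The endoderm-like cells made up 22.6% and 24% of kept cells in the DUX-pulsed libraries, set against 46.2% and 54.5% in the control libraries. The clusters behind them also differed. In the DUX-pulsed libraries 272 and 198 endoderm-like cells lay in a gut-like cluster led by Ghrl and 149 and 100 in a cluster led by Cenpf and other cell cycle genes, set against 23 and 12 and against 334 and 421 cells in the control libraries. Visceral endoderm-like cells numbered 3 and 8 in the DUX-pulsed libraries and 349 and 357 in the control libraries, cells of a cluster led by Ly6h 10 and 8 against 439 and 387, cells of a gut-like cluster led by Anpep 2 and 3 against 151 and 251, and hepatoblast-like secretory cells 31 and 8 against 8 and 9. Beside every comparison of endoderm-like cells below stands this difference in makeup, and values for the Cenpf cluster alone, which had at least 100 cells of every library, or without the hepatoblast-like cluster are given beside them. The Cenpf cluster is led by cell cycle genes, so its endoderm types can differ between the groups. It does not hold the cell type constant. The part of the makeup in the results was not tested.

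Over the whole culture, 5 of the 7 carrier genes passed the test between DUX-pulsed and control libraries: Afp, Alb and Ambp rose, Ttr and Rbp4 fell, and Trf and Vtn did not pass. Within the endoderm-like cells Afp, Alb, Vtn and Ambp rose and Ttr fell, again 5 of 7. Of all genes tested, 26.7% passed in the whole culture (15.6% higher and 11.1% lower in DUX-pulsed libraries) and 27.1% in the endoderm-like cells (13.6% in each direction), by edgeR's quasi-likelihood test with Benjamini-Hochberg adjustment at 0.05. Counts were summed per library, so over the whole culture fewer cells of a type and less RNA per cell cannot be told apart. The values per library below are CPM over TMM-scaled library sizes unless raw CPM is named, and each n is the 2 libraries of a group.

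**Figure D1:**
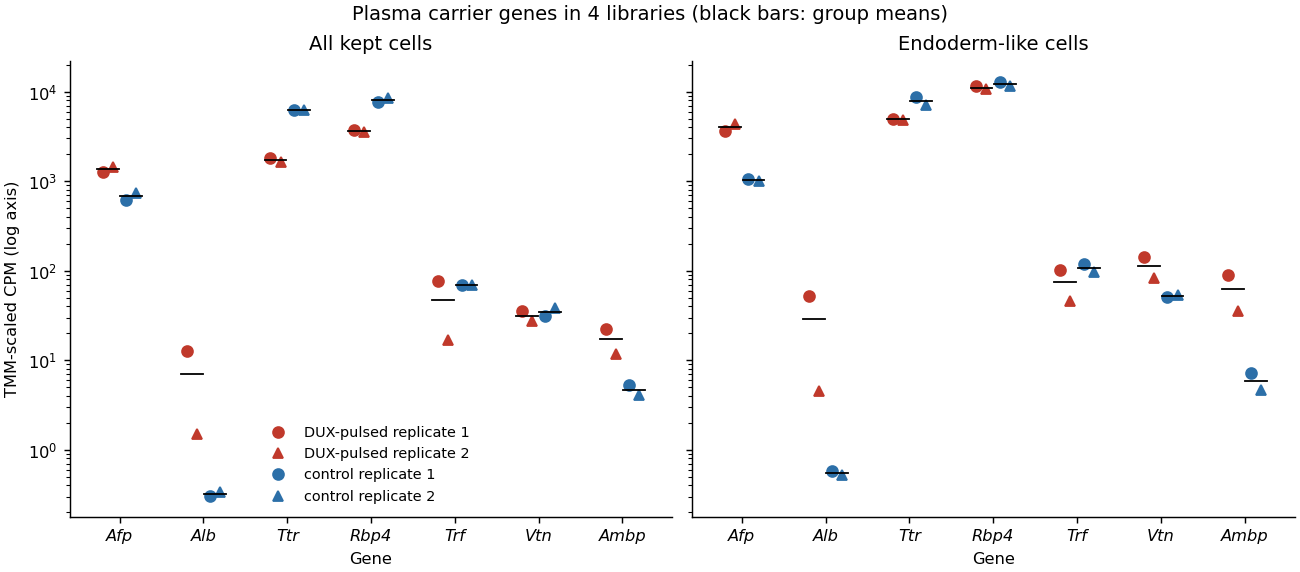
Level of the 7 carrier genes (TMM-scaled CPM, log axis) in each of the 2 DUX-pulsed (red) and 2 control (blue) libraries, over all kept cells (left) and over endoderm-like cells (right), with black bars at the group means. Afp and Ambp lie higher and Ttr lower in both DUX-pulsed libraries in both panels, Rbp4 is lower in both DUX-pulsed libraries on the left, and the 2 DUX-pulsed libraries lie far apart for Alb and Trf.

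Afp, the fetal albumin relative, measured 1276 and 1445 CPM over the whole culture in the DUX-pulsed libraries, against 620.4 and 745.6 CPM in the control libraries. Both DUX-pulsed libraries were above both control libraries, with means of 1360 ± 119.4 and 683 ± 88.6 CPM (SD, n = 2 each), and with a log2 fold change at 0.99 (SE 0.17, adjusted p = 0.0109 in edgeR). Within endoderm-like cells Afp measured 3660 and 4369 CPM in the DUX-pulsed libraries and 1050 and 1004 CPM in the control libraries. The gap between the groups was wider there, the log2 fold change being 1.97 (SE 0.17, adjusted p = 0.000128 in edgeR). In the Cenpf cluster alone, Afp was at 2931 and 3993 CPM in the DUX-pulsed libraries, against 559.6 and 617.2 CPM in the control libraries (log2 fold change 2.56, adjusted p = 6.46e-05). In that cluster 22.6% of genes tested passed, 11.9% higher and 10.7% lower.

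Alb, the main plasma protein of the adult, was counted in few cells. The DUX-pulsed libraries held 788 and 54 Alb UMIs in 43 and 19 cells, against 29 and 28 UMIs in 10 and 10 cells of the control libraries. Hepatoblast-like cells held 97.8% and 63.0% of the Alb UMIs in the DUX-pulsed libraries and 0% and 67.9% in the control libraries, where replicate 1 had 72.4% of them in the gut-like cluster led by Ghrl. Single cells carried much of the count: the 3 highest cells held 456 and 34 UMIs in the DUX-pulsed libraries and 22 and 18 UMIs in the control libraries. At least 1 Alb UMI was found in 29 of 31 and 5 of 8 hepatoblast-like cells of the DUX-pulsed libraries, and in 0 of 8 and 4 of 9 of the control libraries.

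Over the whole culture Alb was at 12.6 and 1.49 CPM in the DUX-pulsed libraries, against 0.304 and 0.340 CPM in the control libraries (log2 fold change 4.46, SE 0.99, adjusted p = 0.0227 in edgeR). Within endoderm-like cells it was at 52.7 and 4.49 CPM in the DUX-pulsed libraries and at 0.584 and 0.521 CPM in the control libraries (5.70, SE 0.94, adjusted p = 0.00234). The groups did not overlap, but DUX-pulsed replicate 1 was far above replicate 2. Without DUX-pulsed replicate 1 the log2 fold change was 2.22 over the whole culture and 3.02 in endoderm-like cells, and without the hepatoblast-like cluster it was 1.80 in the other endoderm-like cells (adjusted p = 0.0455 in edgeR).

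Afp and Alb lie head to tail on chromosome 5 of mm10, Alb at chr5:90460897-90476602 and Afp at chr5:90490737-90508907, both on the plus strand with 14.13 kb between them (GENCODE vM21). The 50 other genes tested within 5 Mb had a median log2 fold change of 0.01 over the whole culture, with 9 higher and 8 lower past the threshold. In endoderm-like cells 44 neighbours had a median of 0.16, with 9 higher and 6 lower. Over all genes tested, 15.6% passed higher and 11.1% lower in the whole culture, and 13.6% in each direction in endoderm-like cells. RefSeq promoter windows (GRCm38.p6) were found for 5 of the 7 genes. The 250 bases before the RefSeq start of Afp (chr5:90490464-90490713) and of Alb (chr5:90460620-90460869) are shown, 5′ to 3′ on the plus strand, because these neighbours moved in the same direction and liver transcription factors are known to act at both promoters. Capitals mark matches, on either strand, to the short HNF1 motif GTTAAT, the C/EBP motif TTGCNNAA and the TATA motif TATAAA.
Afp: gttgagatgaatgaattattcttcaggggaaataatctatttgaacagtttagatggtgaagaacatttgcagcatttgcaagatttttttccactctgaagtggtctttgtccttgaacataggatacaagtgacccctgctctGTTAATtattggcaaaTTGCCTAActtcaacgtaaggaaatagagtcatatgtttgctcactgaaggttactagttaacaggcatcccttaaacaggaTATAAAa
Alb: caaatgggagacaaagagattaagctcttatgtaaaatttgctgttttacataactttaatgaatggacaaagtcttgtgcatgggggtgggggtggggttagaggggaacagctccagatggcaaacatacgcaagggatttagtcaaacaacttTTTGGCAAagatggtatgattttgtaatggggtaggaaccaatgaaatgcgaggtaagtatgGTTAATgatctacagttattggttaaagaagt
Positions are counted from the RefSeq start, and both windows end upstream of the GENCODE starts given above. The Afp window held GTTAAT starting 105 bases before the RefSeq start, TTGCNNAA at 89 and TATAAA at 7. The Alb window held GTTAAT at 32 and TTGCNNAA at 94, and no TATAAA. Among 32851 promoter windows of the same length, 6.43% held GTTAAT, 9.56% TTGCNNAA and 12.4% TATAAA. Neither window held the full HNF1 palindrome (in 0.00913% of windows, and containing the short motif), the FOXA motif TGTTTAC (3.17%) or the HNF4 motif CAAAGTCC (1.2%). These matches describe the letters of the windows, and binding was not measured.

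Ttr, the thyroid hormone carrier, measured 1831 and 1632 CPM over the whole culture in the DUX-pulsed libraries, against 6247 and 6189 CPM in the control libraries. The groups were far apart beside their spread, with means of 1732 ± 140.9 and 6218 ± 40.9 CPM (SD, n = 2 each) and a log2 fold change at -1.84 (SE 0.17, adjusted p = 0.00259 in edgeR). Within endoderm-like cells the values were 4979 and 4826 CPM in the DUX-pulsed libraries and 8664 and 7038 CPM in the control libraries, again without overlap (log2 fold change -0.68, SE 0.18, adjusted p = 0.0202). With 1 library left out the log2 fold change was -0.70 (without DUX-pulsed replicate 1), -0.66 (DUX-pulsed replicate 2), -0.53 (control replicate 1) or -0.84 (control replicate 2). Ttr did not pass without either DUX-pulsed library or without control replicate 1, so the call depended on which library was left out. In the Cenpf cluster the values were 4778 and 4136 CPM in the DUX-pulsed libraries and 5545 and 5502 CPM in the control libraries (-0.31, adjusted p = 0.207 in edgeR).

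Rbp4, the retinol carrier that Ttr holds, measured 3687 and 3557 CPM over the whole culture in the DUX-pulsed libraries, against 7712 and 8460 CPM in the control libraries. The groups did not overlap, and the log2 fold change was -1.16 (SE 0.16, adjusted p = 0.00602 in edgeR). Within endoderm-like cells Rbp4 was at 11560 and 10630 CPM in the DUX-pulsed libraries and at 12900 and 11630 CPM in the control libraries. There DUX-pulsed replicate 1 lay close to control replicate 2, and the log2 fold change of -0.14 (SE 0.17) did not pass the test (adjusted p = 0.584). In the Cenpf cluster it was -0.07 (adjusted p = 0.809 in edgeR). The sum over the whole culture moved with the share of endoderm-like cells given above, whose part in it was not tested.

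Trf, the iron carrier, measured 77.4 and 16.7 CPM over the whole culture in the DUX-pulsed libraries, against 69.0 and 70.0 CPM in the control libraries. DUX-pulsed replicate 1 was above both control libraries and DUX-pulsed replicate 2 below both, and the log2 fold change of -0.56 (SE 0.62) did not pass (adjusted p = 0.54 in edgeR). Without DUX-pulsed replicate 1 it was -2.04 (adjusted p = 5.44e-05), and without DUX-pulsed replicate 2 it was 0.16 (0.569). The 2 DUX-pulsed libraries drew Trf from different cells. In DUX-pulsed replicate 1, 65.3% of Trf UMIs came from parietal endoderm-like cells and 27.6% from hepatoblast-like cells, while in DUX-pulsed replicate 2 hepatoblast-like cells gave 55.9%. In the control libraries visceral endoderm-like cells gave 48.9% and 39.6%. The parietal endoderm-like cluster held 252 and 29 cells of the DUX-pulsed libraries and 52 and 9 of the control libraries, with Trf at 232 and 16.7 raw CPM against 19.5 and 22.9 raw CPM.

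Within endoderm-like cells Trf was at 102.1 and 45.9 CPM in the DUX-pulsed libraries and at 118.2 and 95.9 CPM in the control libraries, with overlapping groups (log2 fold change -0.53, SE 0.30, adjusted p = 0.238 in edgeR). The call changed with the cells summed. Without the hepatoblast-like cluster, 56 of the 3533 cells, Trf on the log2 scale fell by 2.76 (adjusted p = 3.82e-05). In the Cenpf cluster it was at 16.2 and 16.0 CPM in the DUX-pulsed libraries, against 78.0 and 78.3 CPM in the control libraries, and fell by 2.28 (SE 0.15, adjusted p = 5.09e-05). Both of these sets of cells were defined after the values had been seen.

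Vtn, the adhesive glycoprotein, measured 35.4 and 27.3 CPM over the whole culture in the DUX-pulsed libraries, against 31.0 and 37.9 CPM in the control libraries. The groups overlapped (log2 fold change -0.14, SE 0.19, adjusted p = 0.629 in edgeR). Within endoderm-like cells Vtn was at 142.6 and 81.9 CPM in the DUX-pulsed libraries and at 51.2 and 52.9 CPM in the control libraries. Both DUX-pulsed libraries were higher there (1.11, SE 0.23, adjusted p = 0.00733), and hepatoblast-like cells gave 51.4% and 28.4% of Vtn UMIs of all kept cells in the DUX-pulsed libraries, set against 10.6% and 8.63% in the control libraries. Without that cluster the log2 fold change was 0.51 (adjusted p = 0.0348), and in the Cenpf cluster it was 0.18 (adjusted p = 0.487).

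Ambp, the bikunin precursor, measured 22.5 and 11.9 CPM over the whole culture in the DUX-pulsed libraries, against 5.32 and 4.05 CPM in the control libraries (log2 fold change 1.88, SE 0.34, adjusted p = 0.0118 in edgeR). Within endoderm-like cells it was at 90.6 and 35.2 CPM in the DUX-pulsed libraries and at 7.19 and 4.67 CPM in the control libraries. Both DUX-pulsed libraries were above both control libraries in each set, and the log2 fold change within endoderm-like cells was 3.41 (SE 0.40, adjusted p = 0.000468). Hepatoblast-like cells gave 70.1% and 44.9% of Ambp UMIs in the DUX-pulsed libraries, set against 9.86% and 3.6% in the control libraries. Ambp was also higher in the Cenpf cluster, at 36.6 and 23.3 CPM in the DUX-pulsed libraries, against 3.62 and 6.45 CPM in the control libraries (2.57, adjusted p = 0.000552 in edgeR).

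The 5 carrier genes outside the Afp and Alb pair lie on other chromosomes. In mm10, Ttr is at chr18:20665280-20674321 and Vtn at chr11:78499091-78502324, both on the plus strand. Rbp4 is at chr19:38116629-38125281, Trf at chr9:103204001-103230444 and Ambp at chr4:63143275-63154799, all on the minus strand. No RefSeq promoter window was found for Ttr or Trf. In the windows of the others, the FOXA motif and, in a second window, the C/EBP and TATA motifs were matched for Rbp4. The short HNF1 motif and TATAAA were matched for Vtn, and none of the 6 motifs for Ambp. The Ambp window (chr4:63154173-63154422) and the second Rbp4 window (chr19:38124812-38125061) lie inside the GENCODE genes given above. The Vtn window (chr11:78498870-78499119) runs past the GENCODE start. Matches, and their absence for Ambp, describe these windows only.

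Cell by cell, the difference in Afp was spread over many endoderm-like cells. With each cell thinned to 5000 UMIs, which left 466 and 317 endoderm-like cells of the DUX-pulsed libraries and 1283 and 1418 of the control libraries, no Afp UMI was found in 12.2% and 12.6% of DUX-pulsed cells, against 47.9% and 45.6% of control cells. At least 10 Afp UMIs were found in 48.7% and 48.6% of DUX-pulsed cells and in 11.3% and 12.1% of control cells, and the medians were 9 and 9 against 1 and 1 UMI. The 2 libraries of a group lay close together in each of these shares. Before thinning, an Afp UMI was found in 97.4% and 96.0% of DUX-pulsed cells and in 75.6% and 82.3% of control cells, at median depths of 31168 and 34704 UMIs in DUX-pulsed cells and 31431.5 and 30292 UMIs in control cells.

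After thinning, a Ttr UMI was found in 98.7% and 98.1% of DUX-pulsed and 99.4% and 99.6% of control endoderm-like cells, so the groups were compared by the number of UMIs. At least 30 Ttr UMIs of 5000 were found in 31.8% and 27.1% of DUX-pulsed cells, against 52.5% and 49.9% of control cells. For Rbp4 the same shares were 74.9% and 75.7% in DUX-pulsed cells and 88.2% and 89.6% in control cells. Trf was sparse: 9.01% and 8.20% of thinned DUX-pulsed cells had a Trf UMI, against 30.2% and 29.8% of control cells, and 19.5% and 20.6% against 62.8% and 64.3% before thinning. At least 10 Trf UMIs were found in 3 of 466 and 3 of 317 thinned DUX-pulsed cells, all of them hepatoblast-like, and in 4 of 1283 and 0 of 1418 control cells.

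**Figure D2:**
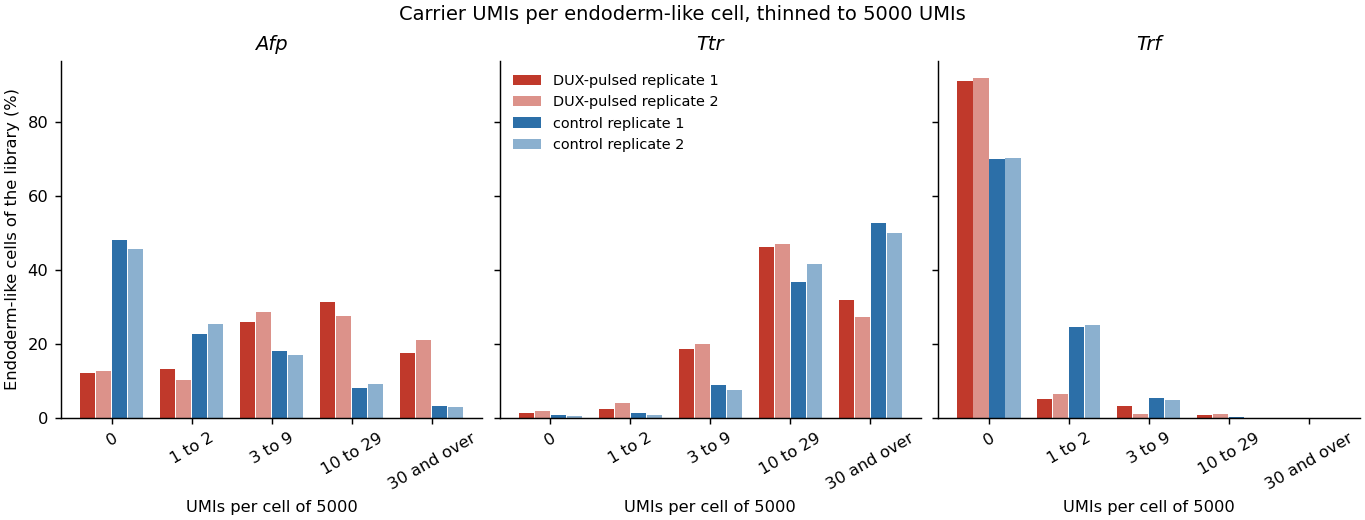
Share of endoderm-like cells (%, vertical axis) by the number of Afp, Ttr and Trf UMIs per cell (horizontal axis) after thinning each cell to 5000 UMIs, for the 2 DUX-pulsed libraries (red) and the 2 control libraries (blue). Cells without an Afp UMI are 12.2% and 12.6% in the DUX-pulsed libraries and 47.9% and 45.6% in the control libraries, and the Trf bars at 0 UMIs are higher in the DUX-pulsed libraries.

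Across classes, pooled over libraries, 5 of the 7 genes (Afp, Alb, Trf, Vtn and Ambp) had their highest summed level in hepatoblast-like cells, Ttr in visceral endoderm-like cells and Rbp4 in the Ly6h cluster. With the carriers kept among the genes for clustering, Trf was highest in visceral endoderm-like cells. This order is a description, without a test. In hepatoblast-like cells, Afp was at 7647 and 12470 raw CPM in the DUX-pulsed libraries and at 6562 and 6743 raw CPM in the control libraries, from 31, 8, 8 and 9 cells. Trf was at 845 and 1040 raw CPM in the DUX-pulsed and 763 and 246.7 raw CPM in the control hepatoblast-like cells, and Vtn at 720.9 and 868 against 1186 and 840 raw CPM. Ambp was at 626 and 597 raw CPM in the DUX-pulsed against 188.9 and 37.5 raw CPM in the control hepatoblast-like cells. With so few cells in 3 libraries no class mean was formed.

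The highest Ttr level, in visceral endoderm-like cells, was 17231 raw CPM in the 8 cells of DUX-pulsed replicate 2, against 14921 and 12892 raw CPM in the control libraries. Pooled over libraries, Ttr was at 6043 raw CPM in a cluster led by Trh and at 5657 raw CPM in the Ly6h cluster. Rbp4 was at 15160 and 14171 raw CPM in DUX-pulsed and 15588 and 13957 raw CPM in control cells of the Ly6h cluster, and at 20153 raw CPM in the 8 visceral endoderm-like cells of DUX-pulsed replicate 2, against 12821 and 13138 raw CPM in those of the control libraries. Within DUX-pulsed replicate 2 the visceral endoderm-like cells were thus above the Ly6h cluster. Afp in the same cluster was at 126.8 and 1538 raw CPM in 10 and 8 DUX-pulsed cells, against 114.5 and 102.9 raw CPM in control cells. In the gut-like cluster led by Ghrl, Afp was at 3245 and 4367 raw CPM in DUX-pulsed and 1367 and 1794 raw CPM in control cells. Vtn had the other order there, at 70.3 and 65.1 raw CPM in DUX-pulsed and 329.4 and 291.7 raw CPM in the 23 and 12 control cells.

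**Figure D3:**
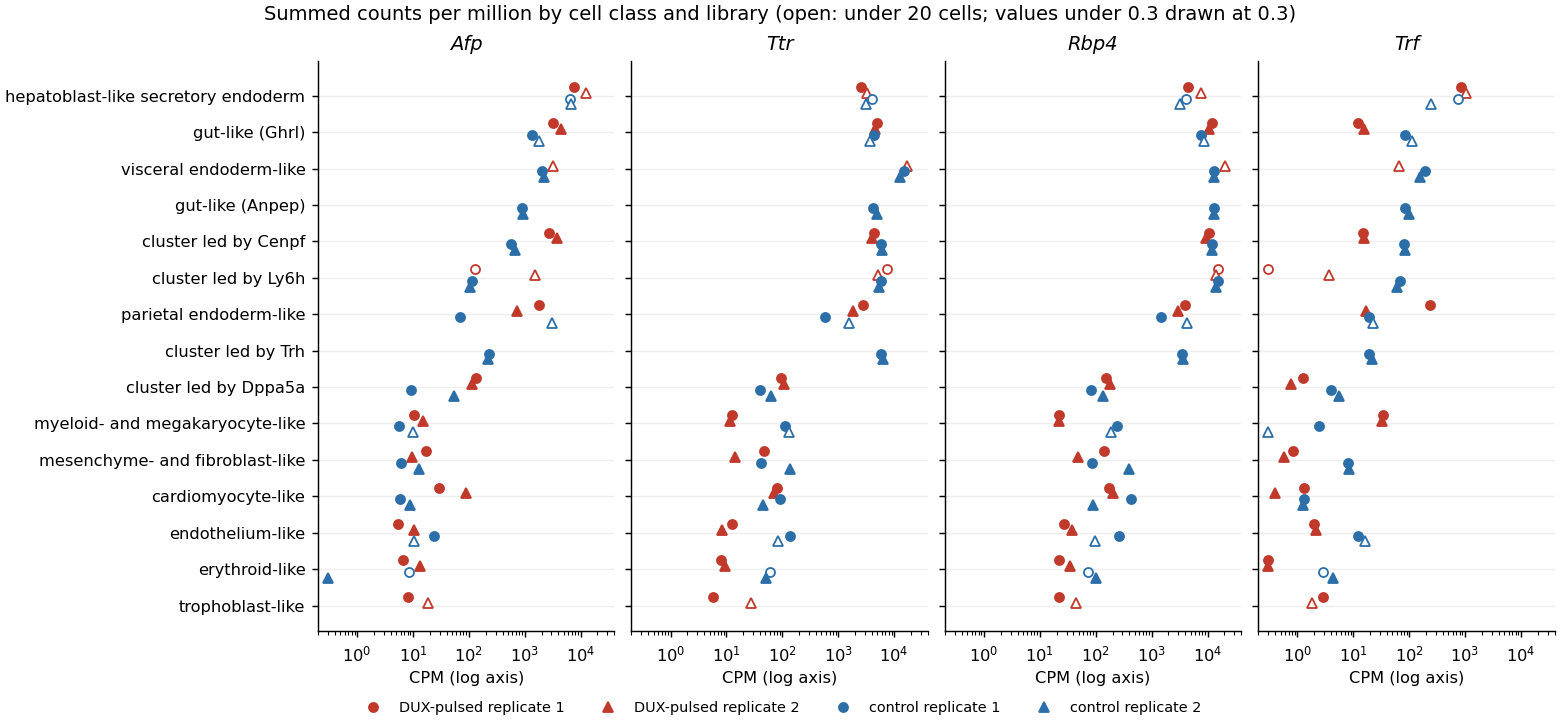
Summed raw CPM (log axis) of Afp, Ttr, Rbp4 and Trf by library in the cell classes shown, with DUX-pulsed libraries in red above control libraries in blue, open symbols for under 20 cells and no symbol for under 5 cells. Endoderm-like classes and the Trh cluster stand above the non-endoderm classes for Ttr and Rbp4, Afp is highest in hepatoblast-like cells, and Trf in myeloid-like cells lies at 33.6 and 32.0 CPM in the DUX-pulsed libraries and 2.41 and 0 CPM in the control libraries.

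The cells behind each total differed by group. Visceral endoderm-like cells gave 59.5% and 52.5% of Afp UMIs in the control libraries, while in the DUX-pulsed libraries the Ghrl cluster gave 31.7% and 51.3% and parietal endoderm-like cells 30.4% and 1.52%. For Ttr the Ghrl cluster gave 33.8% and 48.1% and parietal endoderm-like cells 32.5% and 3.35% in the DUX-pulsed libraries, and visceral endoderm-like cells 42.7% and 36.6% in the control libraries. Afp in parietal endoderm-like cells was at 1780 and 739 raw CPM in the DUX-pulsed libraries, against 68.1 and 3132 raw CPM in the control libraries, the last from 9 cells. With the parietal endoderm-like cells added to the endoderm-like set, the log2 fold change of Trf was 0.01 and that of Vtn 0.57, and neither passed.

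Over the 19 clusters, the genes whose pooled levels were most like Ttr (Pearson's r of log2(CPM + 1)) were Apoa1 (0.989), Apom (0.987) and Rbp4 (0.98), and for Rbp4 they were Ttr (0.98), Apoa1 (0.979) and Habp2 (0.97). Apoa1 and Apom are apolipoproteins. For Afp they were Akr1c12 (0.952), Spp2 (0.95) and Serpinf2 (0.935), and for Alb Bhmt (0.99), Serpind1 (0.983) and Serpina6 (0.977). For Trf the nearest were Sfmbt1 (0.924), Gltpd2 (0.9) and Akr1c12 (0.889), for Vtn Serpina1b (0.964), Myo5c and Ppp4r4 (0.962), and for Ambp Elovl2 (0.964), Itih2 (0.959) and Serpina1d (0.949). Itih2 encodes a heavy chain of the inter-alpha-inhibitors, in which bikunin is the light chain. Pooled Alb was at 331 raw CPM in the hepatoblast-like class and at most 2.56 raw CPM in any other class. The r values of Alb therefore rest mainly on 1 cluster. Serpind1, Serpinf2, Serpina1b and Itih2 were also among the markers used to name that cluster. The clusters share the 4 libraries and differ in depth and size, so these values describe likeness over clusters and carry no test.

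Within endoderm-like cells thinned to 5000 UMIs, Spearman's rho between Ttr and Rbp4 was 0.522 and 0.564 over cells of the DUX-pulsed libraries and 0.273 and 0.303 over cells of the control libraries. Between Vtn and Ambp it was 0.469 and 0.28 in DUX-pulsed and 0.113 and 0.117 in control cells. Between Afp and Rbp4 it lay near 0 in all 4 libraries, at -0.124 and -0.0472 in DUX-pulsed and -0.0668 and -0.0305 in control cells. The cells of a library share its free RNA and its mixture of clusters, Ambp and Vtn are sparse, and none of these values was tested.

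In the named non-endoderm classes the carriers were low. Some cells outside both sets were not. Pooled over libraries, Ttr was at 2337 raw CPM in parietal endoderm-like cells. It was at 5819 raw CPM in the 2 clusters with endoderm factors and epiblast or primitive streak genes. In named non-endoderm cells Afp was at 19.5 and 38.5 CPM in the DUX-pulsed libraries and 7.98 and 9.76 CPM in the control libraries, and Rbp4 at 125 and 99.98 CPM against 211 and 235.2 CPM. Both passed the test there (Afp log2 fold change 1.72, adjusted p = 0.0361; Rbp4 -0.99, adjusted p = 0.0299 in edgeR), as did 7.36% of all genes tested, 4.91% higher and 2.45% lower in DUX-pulsed libraries. Ttr was at 51.0 and 33.7 CPM in the DUX-pulsed libraries and 72.7 and 89.6 CPM in the control libraries (-0.93, adjusted p = 0.0656), Trf (adjusted p = 0.442) and Vtn (0.898) did not pass, and Alb and Ambp were below the filter on counts. Single classes did not all follow these sums: Ttr in cardiomyocyte-like cells was at 80.2 and 69.6 raw CPM in the DUX-pulsed and 90.5 and 44.5 raw CPM in the control libraries, and Afp in endothelium-like cells at 5.44 and 10.6 against 24.03 and 10.6 raw CPM.

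These counts sat in few cells. The 5% of non-endoderm cells with the most Afp held 72.1% and 80.5% of its UMIs in the DUX-pulsed libraries and 54.8% and 50.7% in the control libraries, and the median cell had 0. Without the 5% of cells with the highest doublet scores in each library, the Afp difference in non-endoderm cells was 0.50 (adjusted p = 0.364 in edgeR), while Ttr was at -1.94 (0.00762) and Rbp4 at -1.35 (0.0125). Without the cardiomyocyte-like cells the log2 fold changes were 0.41, -1.87 and -1.64 for Afp, Ttr and Rbp4, and none passed.

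With cells thinned to 5000 UMIs, an Afp UMI was found in 5.56% (95% exact binomial interval 4.27 to 7.09) and 6.64% (4.88 to 8.78) of non-endoderm cells of the DUX-pulsed libraries, against 3.17% (1.70 to 5.36) and 4.4% (2.22 to 7.74) in the control libraries. For Ttr the shares were 6.85% (5.42 to 8.53) and 6.93% (5.14 to 9.11) against 21.5% (17.6 to 25.8) and 25.2% (19.9 to 31.1). Both shares of Ttr were lower in the DUX-pulsed than in the control libraries. The intervals describe cells within 1 library and do not compare the groups. For Rbp4 the shares were 15.2% and 18.0% in the DUX-pulsed libraries and 34.6% and 42.4% in the control libraries. No thinned non-endoderm cell of 1080 and 678 in the DUX-pulsed and 410 and 250 in the control libraries had an Alb UMI, which allows shares of cells with an Alb UMI at this depth of up to 0.278% and 0.442% in the DUX-pulsed and 0.732% and 1.2% in the control libraries. At full depth these cells held 3 and 1 Alb UMIs in the DUX-pulsed and 0 and 0 in the control libraries. These intervals and limits cover counting error only. Unthinned, 26.2% and 31.9% of DUX-pulsed and 64.4% and 67.6% of control non-endoderm cells had a Ttr UMI, at median depths of 25038 and 28315 UMIs and of 24391 and 23704 UMIs.

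Free RNA of a library would be expected to keep its genes in 1 ratio in all of its classes. Without the highest doublet scores, the level in non-endoderm cells was 0.690% and 0.771% of the whole-library level for Afp in the DUX-pulsed libraries and 0.922% and 1.19% in the control libraries. For Ttr it was 0.658% and 0.928% against 0.856% and 0.862%, and for Rbp4 0.941% and 1.16% against 1.26% and 1.21%. These shares lay between 0.658% and 1.26%, taken of whole-library levels that kept the cells with the highest scores. Without the highest scores, Afp UMIs per 100 Ttr UMIs numbered 73.0 and 73.5 in DUX-pulsed and 10.7 and 16.7 in control non-endoderm cells. In the whole libraries they numbered 69.7 and 88.5 in the DUX-pulsed and 9.93 and 12.1 in the control group. With all non-endoderm cells kept, the level of Afp was 1.5% and 2.65% of the whole-library level in the DUX-pulsed libraries and 1.3% and 1.32% in the control libraries, and the ratio of Afp to 100 Ttr UMIs was 38.3 and 114.2 against 11.0 and 10.9. The 2 DUX-pulsed ratios then lay far apart, on either side of the whole-library values. How much of the low levels of Afp, Ttr and Rbp4 in non-endoderm cells came from free RNA was not tested.

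**Figure D4:**
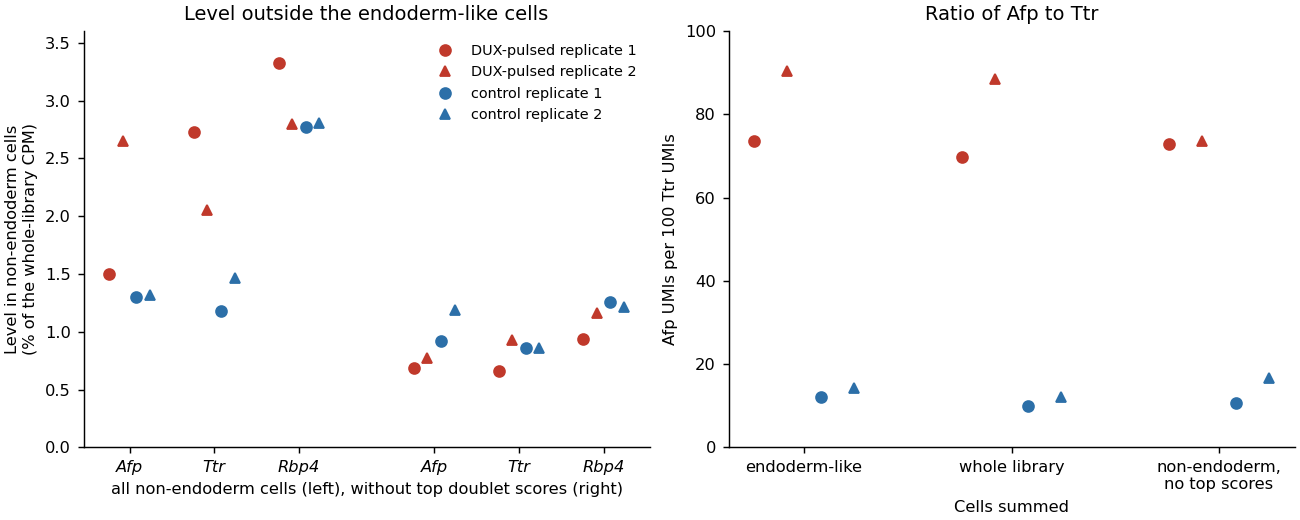
Left, level of Afp, Ttr and Rbp4 in non-endoderm cells as a percentage of the level of the whole library, with all such cells and without those of the highest doublet scores; right, Afp UMIs per 100 Ttr UMIs in endoderm-like cells, the whole library and non-endoderm cells without those scores. Without the highest doublet scores the levels lie between 0.658% and 1.26%, and the ratios in non-endoderm cells lie at 73.0 and 73.5 in the DUX-pulsed (red) and 10.7 and 16.7 in the control (blue) libraries.

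The levels were less even over the single non-endoderm classes, with the highest doublet scores left out. Afp lay between 0.394% and 0.807% of the whole-library level in DUX-pulsed replicate 1, between 0.686% and 1.21% in DUX-pulsed replicate 2, between 0.732% and 1.03% in control replicate 1 and between 0% and 1.49% in control replicate 2. Ttr lay between 0.337% and 0.757% and between 0.533% and 1.78% in the DUX-pulsed libraries, and between 0.665% and 2.54% and between 0.682% and 2.01% in the control libraries. Rbp4 lay between 0.609% and 1.24% and between 0.807% and 1.39% in the DUX-pulsed libraries, and between 0.801% and 4.66% and between 0.984% and 2.15% in the control libraries, so classes of 1 library differed several-fold for Rbp4 in control replicate 1. The check was also made in the other direction, with genes of other classes in endoderm-like cells. Hbb-y, an embryonic globin, was there at 0.694% and 0.468% of its whole-library level in the DUX-pulsed libraries and at 4.45% and 1.63% in the control libraries, and Col3a1, a collagen of fibroblasts, at 1.82% and 0.892% against 1.79% and 3.38%. Myh6, a cardiac myosin, was at 3.24% and 1.17% in the DUX-pulsed and 15.8% and 21.6% in the control libraries.

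Trf in myeloid- and megakaryocyte-like cells of the DUX-pulsed libraries was at a larger share of its whole-library level than Ttr. It had 114 and 36 UMIs there in the DUX-pulsed libraries and 3 and 0 UMIs in the control libraries, at 33.6 and 32.0 raw CPM against 2.41 and 0 raw CPM. These levels were 45.1% and 193% of the whole-library level in the DUX-pulsed libraries, where Ttr in the same cells was at 0.702% and 0.71%. Few cells carried them: 6 of 101 cells held 61.4% of these Trf UMIs in DUX-pulsed replicate 1 and 2 of 36 cells held 72.2% in DUX-pulsed replicate 2, the highest cells had 30 and 19 UMIs, and the median cell had 0. After thinning, 14.6% of 96 and 7.69% of 26 DUX-pulsed myeloid-like cells had a Trf UMI, against 0 of 35 and 0 of 5 control cells. In mesenchyme- and fibroblast-like cells the order of the groups was the other way round, with 11 and 6 Trf UMIs in the DUX-pulsed and 46 and 29 in the control libraries. Without the highest doublet scores, Trf over all non-endoderm cells was at 4.66 and 2.22 raw CPM in the DUX-pulsed and 5.85 and 5.07 raw CPM in the control libraries. In the mesenchyme- and fibroblast-like cells Trf was at 1.11% and 3.47% of its whole-library level in the DUX-pulsed libraries and at 11.9% and 11.3% in the control libraries.

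The DUX effect on Rbp4 differed between endoderm-like and non-endoderm cells by 0.85 on the log2 scale (adjusted p = 0.0018, edgeR interaction test), the log2 fold changes being -0.14 and -0.99. It was the only one of the 7 genes to pass that test, which 16.2% of all genes passed, 8.24% with a positive and 8.0% with a negative difference. For Afp the difference was 0.30 and for Ttr 0.27. Rbp4 in non-endoderm cells was at 3.32% and 2.8% of its whole-library level in the DUX-pulsed and 2.77% and 2.81% in the control libraries. In DUX-pulsed libraries the 5% of these cells with most Rbp4 held 79.8% and 69.7% of its UMIs, against 71.7% and 65.3% in control libraries. Without the highest doublet scores the levels were 0.941% and 1.16% against 1.26% and 1.21%. The difference was not refitted without those scores, and the part of free RNA was not tested. The difference is therefore not shown to lie between 2 responses of cells to DUX.

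Other genes of the same physiology were followed in 3 lists, whose choice was made with results on these data known. Of 21 other plasma carriers and plasma glycoproteins, 14 were tested over the whole culture, with 5 higher and 5 lower in DUX-pulsed libraries. Their median log2 fold change was 0.61 (all genes -0.00). In endoderm-like cells 11 were tested, with 6 higher and 3 lower (median 0.89, all genes -0.01). Over all genes tested, 15.6% passed higher and 11.1% lower in the whole culture, and 13.6% in each direction in endoderm-like cells. Itih2, the inter-alpha-inhibitor heavy chain, was at 20.5 and 18.2 CPM in the DUX-pulsed libraries, against 2.59 and 3.77 CPM in the control libraries, and rose by 2.61 (adjusted p = 0.00259 in edgeR). Hpx (hemopexin), the heme carrier, was at 28.4 and 26.1 CPM against 72.6 and 75.1 CPM, and fell by 1.44 on the log2 scale over the whole culture (adjusted p = 0.00265), with 0.01 within endoderm-like cells. Hp (haptoglobin), which binds haemoglobin, had 50 and 26 UMIs in the DUX-pulsed libraries and 1 and 1 UMI in the control libraries, a ratio per UMI sequenced of 65.3 (95% counting interval 17.5 to 549.1).

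Of 21 receptors and partners of the carriers, all were tested over the whole culture, with 3 higher and 4 lower in DUX-pulsed libraries (median 0.24). In endoderm-like cells 18 were tested, with 1 higher and 6 lower (median 0.02). The shares over all genes were 15.6% higher and 11.1% lower in the whole culture, and 13.6% in each direction in endoderm-like cells. Stra6l, a receptor for Rbp4, was at 0.128 and 0.110 CPM in the DUX-pulsed libraries, against 2.73 and 2.49 CPM in the control libraries, and its log2 level fell by 4.42 (adjusted p = 0.00235 in edgeR). Within endoderm-like cells the fall of Stra6l was smaller, at 1.97 (adjusted p = 0.0455 in edgeR). Slc40a1 (ferroportin), the iron exporter, was at 22.1 and 28.6 CPM against 80.9 and 101.7 CPM, and fell by 1.85 over the whole culture and by 1.02 within endoderm-like cells (adjusted p = 0.00325 and 0.00557). Fcgrt, the receptor that recycles albumin, was at 8.86 and 12.5 CPM in the DUX-pulsed libraries and 2.12 and 2.2 CPM in the control libraries, and rose by 2.30 (adjusted p = 0.00315), with 0.48 in endoderm-like cells (0.155).

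Of 17 transcription factors known to act on Afp and Alb, 5 were higher and 5 lower in DUX-pulsed libraries over the whole culture (median 0.17). There 15.6% of all genes tested passed higher and 11.1% lower. In endoderm-like cells 10 were higher and 1 lower, with a median of 0.71, where 13.6% of all genes tested passed in each direction. Foxa2 and Hnf4a are in this list, and their levels were also used to choose the endoderm-like clusters. Cebpb, a C/EBP factor, was at 62.9 and 59.1 CPM in the DUX-pulsed libraries, against 11.4 and 11.5 CPM in the control libraries, and rose by 2.41 over the whole culture and by 1.25 within endoderm-like cells (adjusted p = 0.00196 and 0.00158 in edgeR). Foxa3 was at 34.3 and 31.1 CPM against 85.8 and 90.6 CPM, and fell by 1.43 (log2) over the whole culture (adjusted p = 0.00275), with -0.16 in endoderm-like cells (0.454). Nr2f1, an orphan nuclear receptor, was at 13.5 and 18.3 CPM in the DUX-pulsed libraries and 2.83 and 3.12 CPM in the control libraries, and rose by 2.41 over the whole culture (adjusted p = 0.00262), with -0.85 in endoderm-like cells (0.117).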

How the data were processed

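The deposited table held whole-number UMI counts per gene and cell for the 4 libraries, with no normalization. Per the submitters' processing notes, Cell Ranger 2.2.0, STAR and the build mm10 were used, with no role given for each. The prefix of a cell's column name gave its group and the closing number its replicate, as in the sample titles. A minimum of 500 detected genes and a maximum of 10% mitochondrial counts left 8876 of 10090 cells. The 2000 most variable genes, without the 7 carrier genes, were used for Leiden clustering at resolution 1 (scanpy 1.11.5). A cluster was named where at least 4 genes of 1 marker list stood among its 30 leading genes, and the naming thresholds and the rule for endoderm-like clusters were set after seeing the data. Doublets were kept. Scrublet called 37 cells (0.417%), too few to rest on, so the 471 cells among the top 5% of its scores were removed as an alternative.

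Counts were summed per library and cell set and tested, DUX-pulsed against control, with edgeR 4.0.16 (R 4.3.3; quasi-likelihood, TMM) over all genes that reached 10 counts in 2 or more libraries and a sum of 40, two-sided, with Benjamini-Hochberg adjustment and a threshold of 0.05. The difference between endoderm-like and non-endoderm cells was tested as an interaction with library as a term. The fit was tested on simulated data. With 2 libraries a group, p-values measure the spread between these libraries. For shares of cells, each cell was thinned to 5000 UMIs and shallower cells were left out (1 and 8 of the DUX-pulsed and 21 and 19 of the control endoderm-like cells, and 45 and 63 against 31 and 22 non-endoderm cells). Exact binomial intervals were at 95%, and a count of 0 was given the limit of 3 counts. Promoter windows were from RefSeq (GRCm38.p6).

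The genes named are the 7 carriers, the 3 with the smallest whole-culture p of each of 3 lists (other plasma carriers and plasma glycoproteins, receptors and partners, transcription factors), and for each carrier the 3 most correlated genes over clusters. Other genes served as class markers and were chosen after their values were seen (Hbb-y, Col3a1, Myh6). The levels in 1 cluster are not reported here. The carriers, lists and tests were chosen with earlier results of these data known. Alternatives were other size factors, DESeq2 1.42.0, filters on counts and cells, depth, doublets, clustering, a replicate block and leaving out each library.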

Additional observations from a re-analysis of the deposited data

Results flagged for a closer look

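The DUX effect on Rbp4 differed between endoderm-like and non-endoderm cells of the same libraries by 0.85 on the log2 scale (adjusted p = 0.0018, edgeR interaction test), which is a difference between 2 sets of cells under 1 contrast. Rbp4 was at 11560 and 10630 CPM in DUX-pulsed and 12900 and 11630 CPM in control endoderm-like cells, and at 125 and 99.98 CPM in DUX-pulsed and 211 and 235.2 CPM in control non-endoderm cells. The non-endoderm levels were 3.32% and 2.8% of the whole-library level in the DUX-pulsed and 2.77% and 2.81% in the control libraries. The whole-library log2 fold change was -1.16. Without the highest doublet scores the non-endoderm levels were 0.941% and 1.16% of the whole-library level in the DUX-pulsed and 1.26% and 1.21% in the control libraries. The difference was not refitted without those scores, and the part of free RNA in the non-endoderm levels was not tested. The difference is therefore not shown to lie between 2 responses of cells. Leaving out each library in turn gave 0.64 to 1.0, with adjusted p from 0.000556 to 0.0129.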

How the results depend on the processing

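Of 307 fold changes of the carrier genes under alternative settings, 262 kept their direction and side of the threshold, 15 came to pass it, 16 ceased to and 14 changed sign. The cause was not tested. Over the whole culture 5 carriers passed, and 5 to 6 when 1 library was left out. In endoderm-like cells 5 passed, 4 to 6 when 1 library was left out, and 3 in the Cenpf cluster alone. In non-endoderm cells 2 passed, 0 to 3 when 1 library was left out (0 without DUX-pulsed replicate 2), 1 with the carriers kept for clustering and 0 without cardiomyocyte-like cells. For the difference between the cell sets 1 passed, and 1 to 2 when 1 library was left out (Afp at 0.68 without DUX-pulsed replicate 2). A lone library of a group was assumed to vary like the others.

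With 1 library left out, signs changed, none of the changed values passing, for Trf (-2.04 to 0.16) and Vtn (-0.32 to 0.046; 0.0073 without control replicate 2) over the whole culture, for Vtn in non-endoderm cells (-0.36 to 0.82), and for the difference between the cell sets in Afp (-0.069 to 0.68), Alb (-0.42 to 2.02), Ttr (-0.075 to 0.58), Trf (-0.0054 to 0.17), Vtn (-0.084 to 1.83) and Ambp (-3.17 to 3.23). They also changed for Vtn over the whole culture with the stricter cell filter (0.062), and in endoderm-like cells for Rbp4 at resolution 2 (0.18) or with the epiblast clusters (0.24) and Trf with parietal endoderm (0.0077). Ttr in endoderm-like cells was also not past the threshold at resolution 0.5 (adjusted p = 0.147) or thinned (0.0656), and Trf there passed when thinned (-0.78, 0.012 in edgeR). Alb could not be tested after thinning.

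Genes past the threshold numbered 4306 over the whole culture, 2042 with the stricter cell filter and 2134 to 4972 with 1 library left out. They numbered 3835 in endoderm-like cells, 1930 thinned and 963 with parietal endoderm, and 1021 in non-endoderm cells, 1906 with no filter, 533 thinned, 491 without cardiomyocyte-like cells and 255 to 1303 with 1 library left out. For the difference between the cell sets they numbered 2519, and 1501 to 2390 with 1 library left out.

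Replicate numbers were shared by the groups, with a correlation of same-numbered deviations of 0.35 over 16140 genes. With 2 pairs the libraries were taken to share only a number. With a replicate block 5 carriers passed over the whole culture, 6 in endoderm-like cells (Trf at -0.61) and 3 in non-endoderm cells (Ttr at -0.94), and 7184, 7026 and 3749 genes passed. Depth limits Alb, Ambp and Vtn outside endoderm, and 31, 8, 8 and 9 hepatoblast-like cells limit their highest class.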
